A study of Mus musculus with 20 samples.

Results

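Fos, Fosb, Jun, Junb, Egr1, Ier2, Atf3, Klf6, Dusp1 and Zfp36 are 10 immediate early response genes, and their mRNA levels are described here in the cecum of 20 mice. They were chosen by name, with earlier results of these data known. Each name was matched to its row by the Ensembl gene ID and GENCODE mouse symbol, which gave 10 genes of the 19887 in the table. After weaning at 3 to 4 weeks of age, C57BL/6 mice ate for 6 weeks the TWD (Total Western Diet), a rodent feed built to resemble human intake. They then received for 3 more weeks the TWD with 0, 2, 5 or 10% raw (resistant) potato starch (RPS), a starch that escapes digestion in the small intestine and reaches the cecum, with 5 mice per diet. All 20 mice therefore shared the TWD, and the 0% RPS mice, which are the controls of every comparison, differed from the rest in RPS alone as far as the labels tell. RNA came from cecum tissue of mice bred in-house and was sequenced as single 50-base reads, and 14967798 to 42687283 reads per mouse were counted on genes. Mice are called 1 to 5 within each diet, which is a name and pairs no mice across diets.

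Immediate early genes are transcribed within minutes of a stimulus, without new protein synthesis, when kinases such as ERK and p38 activate transcription factors that already sit on their promoters. Fos and Jun family proteins pair to form AP-1, which binds DNA at target genes, while Egr1 and Klf6 are zinc finger transcription factors. Dusp1 and Zfp36 act as brakes, the first by dephosphorylating p38, JNK and ERK, and the second by binding AU-rich mRNAs and speeding their decay. In intestine these genes respond to growth factors, microbial products, mechanical stress and the handling and removal of the tissue, so spread between animals of 1 group is part of their description. Time of day, order of killing and the interval between death and freezing are not given in the sources used here.

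The libraries held the marker genes of gut wall, as the 8 epithelial markers (Epcam, Krt8, Krt18, Krt19, Krt20, Cdh1, Vil1, Lgals4) summed to 13590 to 20750 CPM (counts scaled to a common library size) and the 8 smooth muscle markers to 2655 to 10380 CPM, with none of these markers at 0 counts in any mouse. The 8 B cell markers ranged from 4.21 to 399 CPM in sum, with medians of 24.1 CPM on 0% RPS, 11.9 on 2%, 90.8 on 5% and 291 on 10%. Their log2 fold changes at 10% RPS had a median of 2.04, and 0 of 8 had an unadjusted p under 0.05 in edgeR. Of 6 general leukocyte markers (53.3 to 334 CPM in sum), all 6 had higher estimates at 10% RPS (median log2 1.26), 4 at an unadjusted p under 0.05. The 8 epithelial markers all had lower estimates (median log2 -0.16), 3 at an unadjusted p under 0.05, and 0 of either list passed the adjusted threshold. The 8 smooth muscle markers all had higher estimates (median log2 0.61), 5 at an unadjusted p under 0.05 and 1, Actg2, past the threshold. Over all genes, 9.74% were higher and 9.75% lower at an unadjusted p under 0.05 at 10% RPS, and 1.04% passed. The part of tissue makeup in the results on the 10 genes was not tested beyond the covariate fits given below. In bulk tissue, fewer cells of a type and less RNA per cell cannot be told apart. 3 libraries stood apart from the other 17 in base composition. This was measured by the GC contrast, the median centred log2 CPM of the 10% of tested genes richest in GC minus that of the 10% poorest, with the 10 genes left out. It was 0.72 in 0% RPS mouse 5, 0.61 in 2% RPS mouse 3 and 0.69 in 5% RPS mouse 4, against -0.24 to 0.04 in the others, and no 10% RPS library was among them. The same 3 libraries had the highest shares of reads on mitochondrial genes, at 13.0%, 13.8% and 15.4%, against 9.0% to 11.5% in the others. Some of the results that rest on these libraries are given with and without them. For others no estimate without them is given, such as for Zfp36 and Ier2, both highest in 0% RPS mouse 5.

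The promoters of the genes on which the results turn are shown first, with the elements that a search for 4 kinds of motif found in them. RefSeq promoter sequences (GRCm38.p6) were found for 8 of the 10 genes, all but Egr1 and Ier2, and the 250 bases before the start were read 5′ to 3′ on the strand of the gene. Capitals mark a CRE (TGACGTCA, bound by CREB and ATF factors) in Dusp1 at chr17:26508473-26508722, minus strand, a CArG box (bound by serum response factor) in Zfp36 at chr7:28379229-28379478, minus strand, and a TATA box (TATAAA) in Fos at chr12:85473640-85473889, plus strand.
Dusp1: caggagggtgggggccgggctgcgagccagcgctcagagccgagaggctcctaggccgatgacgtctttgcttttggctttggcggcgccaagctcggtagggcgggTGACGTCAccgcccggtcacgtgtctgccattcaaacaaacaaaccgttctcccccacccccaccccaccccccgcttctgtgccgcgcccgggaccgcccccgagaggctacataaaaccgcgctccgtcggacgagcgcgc
Zfp36: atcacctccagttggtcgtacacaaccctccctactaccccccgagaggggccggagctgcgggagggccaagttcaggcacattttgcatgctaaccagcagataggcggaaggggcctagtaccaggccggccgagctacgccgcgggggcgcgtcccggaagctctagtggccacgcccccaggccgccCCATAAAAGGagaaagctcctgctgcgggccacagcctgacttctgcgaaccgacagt
Fos: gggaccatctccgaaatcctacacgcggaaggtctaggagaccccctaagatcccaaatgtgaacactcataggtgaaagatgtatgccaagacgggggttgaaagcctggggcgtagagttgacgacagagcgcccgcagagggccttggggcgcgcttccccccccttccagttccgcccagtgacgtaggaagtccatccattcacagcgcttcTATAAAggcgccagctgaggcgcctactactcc
The CRE of Dusp1 spanned bases 143 to 136 before the start, the CArG box of Zfp36 bases 58 to 49 and the TATA box of Fos bases 33 to 28. Among 32536 mouse promoters cut to the same window, 1.56% held the CRE, 1.48% a CArG box and 12.3% TATAAA. Both strands were searched, and the CRE and the CArG box were each held by 1 of the 8 promoters. The AP-1 site TGACTCA was in 0 of the 8 and in 4.45% of all promoters, which says only that these letters were not in this window.

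Adding RPS to the TWD brought none of the 10 genes past the threshold of the edgeR quasi-likelihood test (Benjamini-Hochberg adjusted p at most 0.05 over all genes and a change of at least 1.5-fold). At 10% RPS, where 1.04% of the 15348 genes tested passed it, the count was 0 of 10. At 5% RPS it was 0 of 10 beside 0.195% of all genes, and at 2% RPS 0 of 10 beside 0% of all genes. The lowest adjusted p of any gene at 2% RPS was 0.429. At 10% RPS all 10 estimates lay below 0, and the median log2 estimate was -0.43 beside 0.00 over all tested genes, of which 49.1% had lower estimates. That count of 10 fell short under other settings, since Junb was at 0.12 without the 3 libraries apart in GC and Fosb at 0.02 with the B cell score as a covariate. At an unadjusted p under 0.05, 5 of the 10 were lower (Zfp36, Dusp1, Egr1, Jun and Klf6) and 0 higher, while 9.75% of all genes were lower and 9.74% higher at that level. These 5 became 3 without the 3 libraries apart in GC and 0 with the B cell score, the mean log2 CPM of the 8 B cell markers, as a covariate. The count was 4 with the smooth muscle score, built alike from its 8 markers, and 6 without robust dispersions. The median of -0.43 became -0.67 with the smooth muscle score and -0.26 with the B cell score. DESeq2, run as the other tool, had 7 of the 10 lower at an unadjusted p under 0.05 and called Dusp1 and Zfp36 lower at 10% RPS. At 5% RPS the 10 estimates were again below 0 (50.5% of all genes), with a median of -0.32 and 2 of 10 (Dusp1 and Zfp36) lower at an unadjusted p under 0.05 (6.54% of all genes). That count was 1 without the 3 libraries apart in GC and 4 with the smooth muscle score as a covariate, where the median was -0.57. At 2% RPS 6 estimates were lower (49% of all genes) and 4 higher, with a median of -0.22 and 0 of 10 at an unadjusted p under 0.05 (5.77% of all genes). The median at 2% RPS was -0.08 without the 3 libraries apart in GC and -0.34 with the smooth muscle score as a covariate. DESeq2 called 0 of the 10 at 5% and at 2% RPS. The 3 comparisons share the same 5 control mice, so they are not independent of each other.

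**Figure D1:**
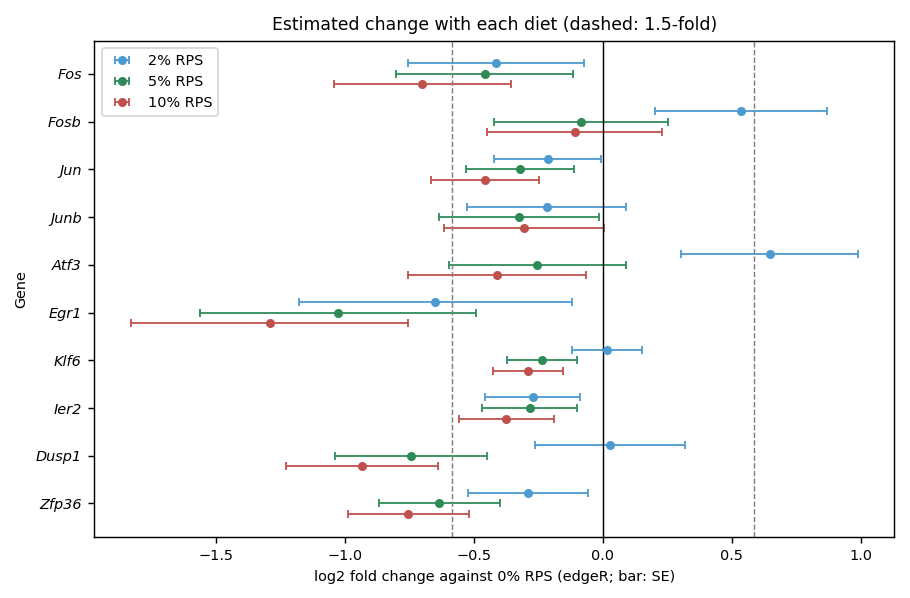
Estimated log2 fold change of each gene against 0% RPS (points) with its standard error (bars) for the mice fed 2, 5 and 10% RPS. At 10% RPS the points run from -1.29 (Egr1) to -0.11 (Fosb), and none passed the threshold; the dashed lines mark a 1.5-fold change.

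Levels differed widely among the 10 genes when scaled by exon length. This length merged the exons of all annotated transcripts of a gene, so the order of levels depends on the annotation. As RPKM (CPM divided by the exon length in kilobases, median of 20 mice), the order of levels was Fos 125, Klf6 75.3, Zfp36 58.9, Jun 55.7, Junb 44.9, Ier2 38.8, Egr1 16.9, Atf3 12.4, Dusp1 8.51 and Fosb 0.64. Neighbours in this order overlapped over the 20 mice, from Fos (57.9 to 215) and Klf6 (60.0 to 126) down to Atf3 (5.57 to 44.3) and Dusp1 (6.31 to 29.1). Fosb, at 0.21 to 1.47 RPKM, lay below the lowest mouse of each of the other 9 genes. Fosb was also the only one with few reads behind it, with 21 to 263 counts per mouse against at least 292 in any mouse for the rest. All 10 genes passed the filter on low counts.

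Dusp1 and Zfp36, the brakes, had the lowest p-values of the 10 at 10 and 5% RPS, in the fit to dose and in the joint test of the diets, but not at 2% RPS. Dusp1 (chr17:26724564-26781102, GRCm39, minus strand, 4 exons) encodes a nuclear phosphatase of MAP kinases. In 0% RPS mice 1 to 5 it stood at 56.4, 26.4, 53.0, 38.8 and 49.95 CPM, and in 2% RPS mice at 40.1, 96.7, 41.8, 21.0 and 29.4 CPM. It stood at 24.8, 28.3, 22.7, 30.3 and 27.8 CPM in 5% RPS mice, and at 21.9, 21.3, 22.8, 23.5 and 28.2 CPM in 10% RPS mice. The mice on 5 and 10% RPS lay close together and low, those on 0 and 2% RPS were scattered, and 0% RPS mouse 2 lay within the range of the 5 and 10% RPS mice. The control group overlapped each of the other 3. In the 10% group, 4 of 5 mice were below the lowest control. The means were 44.9 ± 12.3 CPM (SD, n = 5) on 0% RPS and 23.5 ± 2.75 on 10% RPS, a 1.91-fold lower estimate (log2 -0.93, SE 0.29, edgeR adjusted p = 0.0969). At 5% RPS the log2 estimate was -0.74 (SE 0.29, adjusted p = 0.260) and at 2% RPS it was 0.03 (SE 0.29, adjusted p = 0.995).

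The call for Dusp1 at 10% RPS lay at the edge of the threshold. It passed with DESeq2 (log2 -0.94, adjusted p = 0.0212), with a fit of the 0 and 10% mice alone (adjusted p = 0.0378), without 0% RPS mouse 2 (adjusted p = 0.0492) and without 2% RPS mouse 2 (adjusted p = 0.0296). With the B cell score as a covariate the estimate was -0.64 (adjusted p = 0.289), and without the 3 libraries apart in GC -0.88 (adjusted p = 0.139). Over all alternatives the adjusted p ran from 0.0212 to 0.289. The gene shares its locus with Ergic1 on the opposite strand, and whether counting used the strand of the reads is not given in the sources used here, so reads of the pair may not be told apart.

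Zfp36 (chr7:28076209-28079710, GRCm39, minus strand, 2 exons) encodes tristetraprolin, the mRNA-binding brake. It stood at 265, 160, 348, 305 and 384 CPM in 0% RPS mice 1 to 5 and at 242, 354, 247, 134 and 219 CPM in 2% RPS mice. In 5% RPS mice it stood at 164, 266, 167, 182 and 164 CPM, and in 10% RPS mice at 193, 150.1, 148, 151 and 224 CPM. 4 of 5 controls were above every 10% RPS mouse, and 0% RPS mouse 2 was again among the lowest, so that the groups overlapped. The means were 292 ± 86.5 CPM (SD, n = 5) on 0% RPS and 173 ± 34.2 on 10% RPS, a 1.69-fold lower estimate (log2 -0.76, SE 0.23, edgeR adjusted p = 0.0918). The log2 estimates were -0.63 at 5% RPS (SE 0.23, adjusted p = 0.218) and -0.29 at 2% RPS (SE 0.23, adjusted p = 0.926). Zfp36 passed at 10% RPS with DESeq2 (log2 -0.76, adjusted p = 0.0237) and without 0% RPS mouse 2 (adjusted p = 0.0291), and over all alternatives its adjusted p ran from 0.0237 to 0.324, the highest with the B cell score as a covariate (log2 -0.46).

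**Figure D2:**
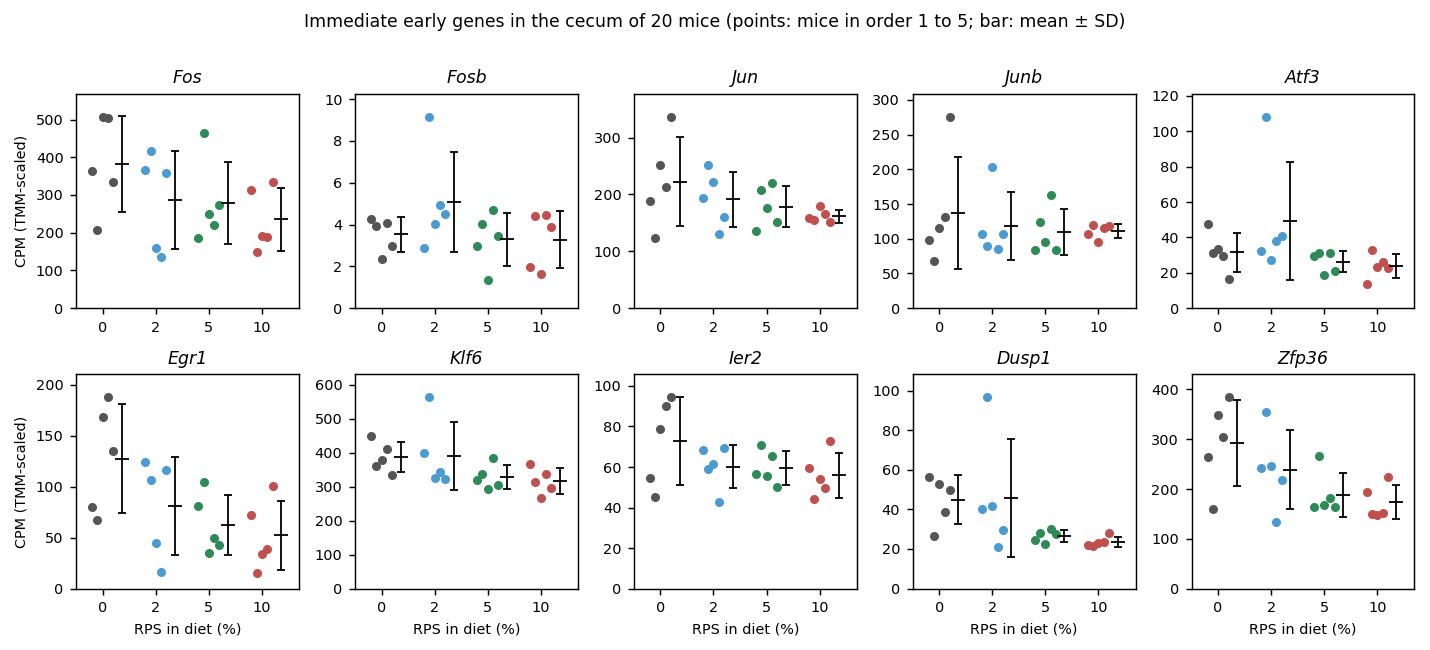
CPM (TMM-scaled, linear axes starting at 0) of the 10 genes in each of the 20 mice by percentage of RPS in the diet, with the mean ± SD of 5 mice beside the points. Dusp1 is at 21.3 to 28.2 CPM in the 10% RPS mice and at 26.4 to 56.4 in the controls, and 2% RPS mouse 2 is the highest mouse for Fosb, Atf3, Klf6 and Dusp1.

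Fos and Egr1 were high and low in much the same mice. Fos (chr12:85520658-85524047, GRCm39, plus strand, 4 exons) encodes the AP-1 subunit that pairs with Jun proteins. It stood at 363, 206, 507, 505 and 334 CPM in 0% RPS mice 1 to 5, and at 367, 416, 158, 136.5 and 358 CPM in 2% RPS mice. In 5% RPS mice it stood at 185, 464, 250.5, 219 and 274 CPM, and in 10% RPS mice at 314, 149, 191, 188.5 and 335 CPM. Every diet held both high and low mice, and the groups overlapped. The means were 383 ± 127 CPM (SD, n = 5) on 0% RPS and 236 ± 83.4 on 10% RPS, a log2 estimate of -0.70 (SE 0.34, edgeR adjusted p = 0.269). The log2 estimates were -0.46 (SE 0.34) at 5% and -0.42 (SE 0.34) at 2% RPS. With the B cell score as a covariate the 10% RPS estimate was -0.17, and without the 3 libraries apart in GC it was -0.74.

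Egr1 (chr18:34992876-34998049, GRCm39, plus strand, 2 exons), a transcription factor that binds GC-rich sites, had the widest range of the 10 genes. It stood at 79.8, 66.8, 168.5, 187.5 and 135 CPM in 0% RPS mice 1 to 5, and at 124, 106, 44.5, 16.0 and 116 CPM in 2% RPS mice. In 5% RPS mice it stood at 80.8, 105, 35.0, 49.2 and 42.3 CPM, and in 10% RPS mice at 71.9, 15.7, 33.7, 38.6 and 100.6 CPM. The highest mouse was 11.9 times the lowest, and no starch-fed mouse reached the median control of 135 CPM, although the groups overlapped. The means were 128 ± 53.1 CPM (SD, n = 5) on 0% RPS and 52.1 ± 33.9 on 10% RPS. The estimate at 10% RPS was 2.45-fold lower (log2 -1.29, SE 0.54, edgeR adjusted p = 0.201), with a log2 of -1.03 (SE 0.53) at 5% and -0.65 (SE 0.53) at 2% RPS. At 10% RPS Egr1 did not pass under any alternative, with log2 estimates from -1.67 to -0.73 and adjusted p from 0.124 to 0.578.

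Jun (chr4:94937271-94940459, GRCm39, minus strand, 1 exon), the partner of Fos, stood at 188, 124, 252, 213 and 336 CPM in 0% RPS mice 1 to 5. In 10% RPS mice it stood at 159, 154, 180, 166 and 151 CPM. The 10% RPS mice were close together and within the range of the controls, which were spread out. The means were 222 ± 78.8 CPM (SD, n = 5) and 162 ± 11.4, a log2 estimate of -0.46 (SE 0.21, edgeR adjusted p = 0.237). Over 2 and 5% RPS the mice ranged from 130 to 252 CPM, with log2 estimates of -0.21 (SE 0.21) and -0.32 (SE 0.21). Without the 3 libraries apart in GC the 10% RPS estimate was -0.25 (SE 0.19), since 0% RPS mouse 5, the highest for Jun, is one of them. Over all alternatives other than leaving out single mice, the estimate ran from -0.75 to -0.25 at 10% and from -0.70 to -0.20 at 5% RPS.

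Junb (chr8:85701113-85705359, GRCm39, minus strand, 1 exon) encodes another AP-1 subunit, often a weaker activator than Jun. It stood at 97.7, 68.1, 115, 132 and 276 CPM in 0% RPS mice 1 to 5, and at 107, 89.5, 203, 85.2 and 107 CPM in 2% RPS mice. In 5% RPS mice it stood at 83.7, 124, 94.9, 162 and 84.0 CPM, and in 10% RPS mice at 106, 120.5, 95.6, 116 and 119 CPM. The 3 highest mice of all 20 were the 3 libraries apart in GC, and the other 17 lay between 68.1 and 132 CPM. The log2 estimate at 10% RPS was -0.31 (SE 0.31, edgeR adjusted p = 0.627) with all mice, -0.07 (SE 0.17) with the GC contrast as a covariate and 0.12 (SE 0.16) without these libraries. At 5% RPS it was -0.33 (SE 0.31) with all mice and -0.09 (SE 0.17) without them. Over all alternatives other than leaving out single mice, it ran from -0.66 to 0.12 at 10% and from -0.81 to -0.09 at 5% RPS. The longest Junb transcript is 62.6% GC, the highest of the 10 genes, and its within-diet SD was 0.50 log2 with all mice and 0.26 without the 3. Jund, another Jun gene that is not among the 10, was at 267, 231 and 301 CPM in the same 3 libraries and at 48.1 to 132 CPM in the other 17. The part of base composition in the level of Junb beyond these values was not tested. Junb shares its locus with Prdx2 on the opposite strand, with the same limit as for Dusp1.

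**Figure D3:**
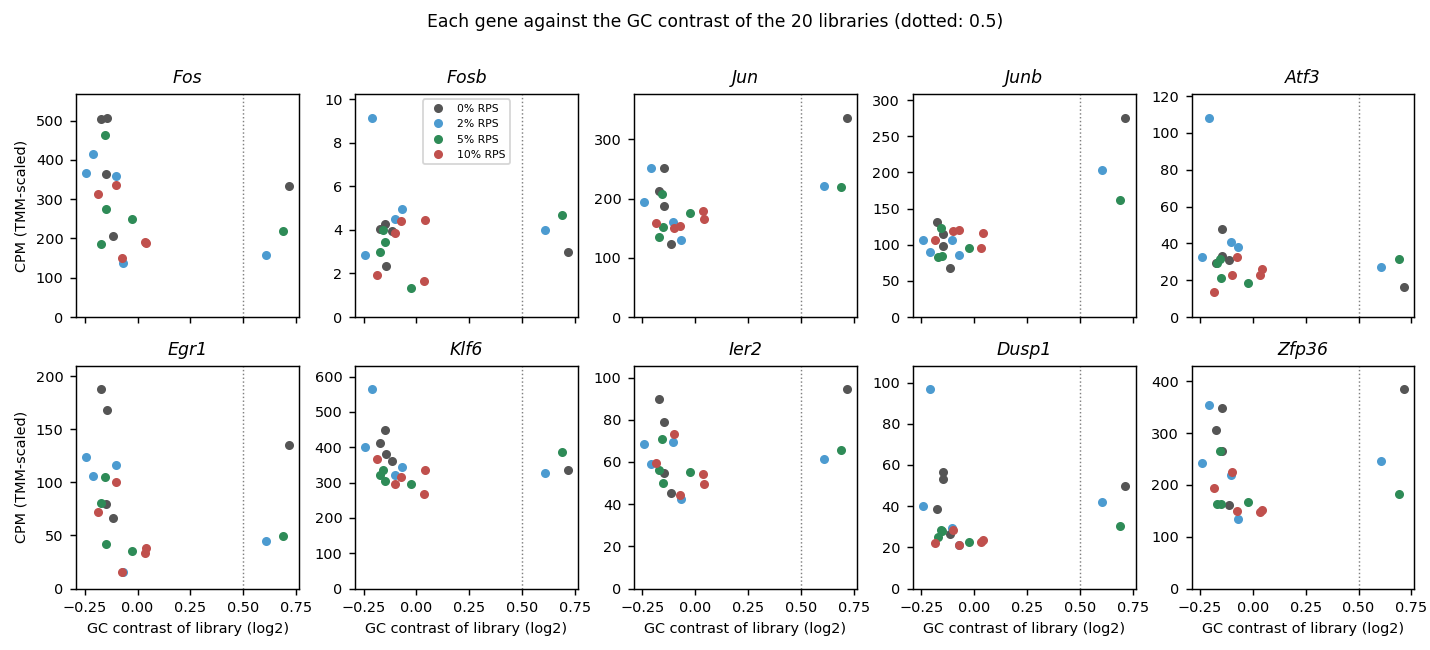
CPM of each gene (linear axes starting at 0) against the GC contrast of the library in log2 units, 1 point per mouse, coloured by diet. The 3 libraries right of the dotted line at 0.5 hold the 3 highest Junb levels (162 to 276 CPM). 1 of them, 0% RPS mouse 5, is also the highest mouse for Jun (336 CPM), Zfp36 (384 CPM) and Ier2 (94.4 CPM). Fos, Egr1 and Dusp1 in the 3 libraries lie within the range of the other 17.

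Fosb, Atf3 and Klf6 shared their highest mouse, 2% RPS mouse 2. Atf3 (chr1:190902493-190950241, GRCm39, minus strand, 4 exons), a stress-induced factor of the ATF/CREB family, was at 108 CPM in that mouse and at 13.6 to 47.6 CPM in the other 19. Fosb (chr7:19036621-19043976, GRCm39, minus strand, 4 exons), a Fos family subunit of AP-1, was at 9.15 CPM there and at 1.33 to 4.95 CPM in the others. Klf6 (chr13:5911481-5920393, GRCm39, plus strand, 4 exons), a Krüppel-like factor of epithelial and other cells, was at 563 CPM there and at 268 to 449 CPM in the others. Atf3 and Fosb had higher log2 estimates at 2% RPS, 0.65 (SE 0.34, edgeR adjusted p = 0.878) and 0.54 (SE 0.33, adjusted p = 0.903). Without that mouse these 2% RPS estimates were 0.14 for Atf3 and 0.23 for Fosb. At 10% RPS the log2 estimate was -0.41 (SE 0.34, adjusted p = 0.544) for Atf3, -0.11 (SE 0.34, adjusted p = 0.895) for Fosb and -0.29 (SE 0.13, adjusted p = 0.242) for Klf6. Over all alternatives the Atf3 estimate at 10% RPS ran from -0.57 to -0.20. The Klf6 means were 387 ± 44.7 CPM (SD, n = 5) on 0% RPS and 316 ± 37.7 on 10% RPS, and all 5 of the 10% RPS mice were below the median control.

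Ier2 (chr8:85387960-85389483, GRCm39, minus strand, 1 exon) encodes a small nuclear protein induced by growth factors. It ranged from 45.1 to 94.4 CPM on 0% RPS, 42.7 to 69.4 on 2%, 50.2 to 70.7 on 5% and 44.1 to 73.1 on 10% RPS. All starch-fed mice were below the median control of 79.0 CPM, within the range of the controls except 1 mouse on 2% and 1 on 10% RPS. The log2 estimates were -0.27 (SE 0.18) at 2%, -0.28 (SE 0.18) at 5% and -0.38 (SE 0.18, edgeR adjusted p = 0.268) at 10% RPS.

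The mice of the control group and of each RPS group overlapped for all 10 genes in all 3 comparisons. Among all tested genes, 4.88% had no overlap at 10% RPS, 3.57% at 5% and 1.09% at 2%. In a linear fit to the RPS dose, 0 of the 10 passed an adjusted p of 0.05 in edgeR, beside 1.11% of all genes, and all 10 slopes were negative beside 49.5% of all genes. The slopes of Dusp1, Zfp36, Klf6, Egr1 and Jun were negative at an unadjusted p under 0.05, 5 of 10 beside 9.47% of all genes. These 5 became 1 with the B cell score and 3 with the smooth muscle score as a covariate. The slope of Junb was 0.02 without the 3 libraries apart in GC. The slopes closest to the threshold were those of Dusp1 (-0.11 log2 per percentage point, SE 0.03, adjusted p = 0.0655) and Zfp36 (-0.07, SE 0.02, adjusted p = 0.0871). DESeq2 called both slopes. A joint test for any difference among the 4 diets called 0 of the 10 (0.0912% of all genes), with 3 at an unadjusted p under 0.05 (Dusp1, Zfp36 and Atf3, beside 11.1% of all genes), and 1 by DESeq2. These 3 became 0 with the B cell score as a covariate.

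Spread between mice on the same diet was wide for most of the group. The within-diet SD of log2 CPM ran from 0.22 for Klf6, at the 45.1st percentile of all tested genes, to 0.94 for Egr1, at the 97.3rd percentile. It was 0.59 for Fosb, 0.59 for Fos, 0.56 for Atf3, 0.50 for Junb, 0.48 for Dusp1, 0.41 for Zfp36, 0.36 for Jun and 0.32 for Ier2, and the median of all tested genes was 0.24. The median percentile of the 10 was 84.5, and 85.7 without the 3 libraries apart in GC. High expression usually lowers this spread, so edgeR dispersions were also set against their trend with expression. The 10 lay above the trend, from 1.10 times for Klf6 (the 78.8th percentile of all tested genes) to 16.1 times for Egr1 (the 99.7th), with Fos at 6.55, Junb at 5.67, Atf3 at 5.41 and Dusp1 at 4.09 times. The biological coefficient of variation was 56.5% for Egr1, 37.1% for Fos and 15.3% for Klf6, against a median of 16.9% over all tested genes. The share of variance of log2 CPM that lay between diets was 43.1% for Dusp1, 37.0% for Zfp36, 32.0% for Atf3, 30.6% for Klf6, 28.3% for Egr1, 15.7% to 19.2% for Fos, Fosb, Jun and Ier2, and 2.83% for Junb, with a median of 15.3% over all tested genes.

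**Figure D4:**
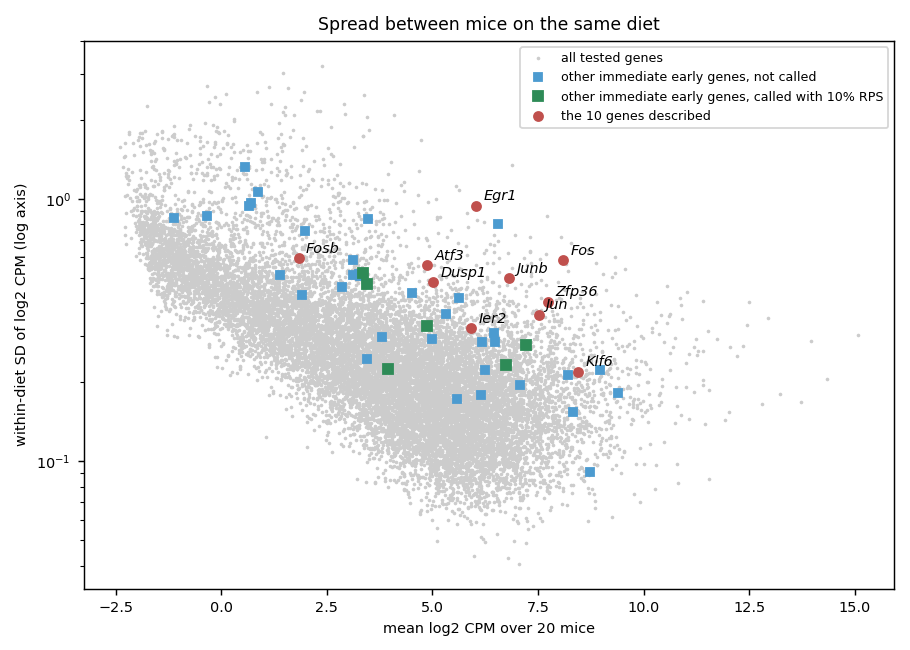
Within-diet SD of log2 CPM (log axis) against mean log2 CPM over 20 mice for all tested genes (grey), the 10 genes described (red), and other immediate early genes that did (green) or did not (blue) pass the threshold at 10% RPS. Egr1 lies highest of the 10 at 0.94, and Klf6 lowest at 0.22.

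The same few mice were high or low for many of the genes. Averaging the 10 genes after centring each on its mean over 20 mice gave an index per mouse on the log2 scale. It was highest in 2% RPS mouse 2 (0.76), followed by 0% RPS mice 4 (0.46), 5 (0.45) and 3 (0.43), and lowest in 2% RPS mouse 4 (-0.49) and 10% RPS mouse 3 (-0.47). The 2 extremes were thus fed the same diet. 2% RPS mouse 4 was the lowest of all 20 for Fos, Zfp36, Ier2 and Dusp1, and 0% RPS mouse 5 the highest for Zfp36, Jun, Junb and Ier2. By diet the index was 0.27 ± 0.30 (SD, n = 5) on 0% RPS, 0.14 ± 0.45 on 2%, -0.14 ± 0.28 on 5% and -0.27 ± 0.20 on 10%. The diets overlapped, as 0% RPS mouse 2 was at -0.25 and 10% RPS mouse 5 at 0.04. Without the 3 libraries apart in GC the means were 0.23, 0.16, -0.19 and -0.27.

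**Figure D5:**
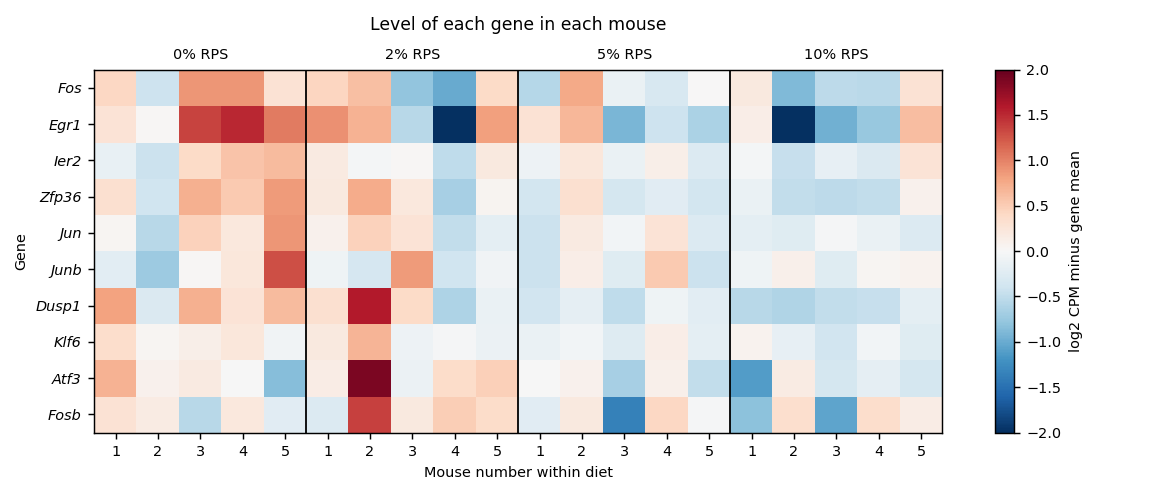
Log2 CPM of each gene minus its mean over 20 mice (colour, blue low and red high) for mice 1 to 5 of each diet. Fos, Egr1, Ier2, Zfp36 and Jun are high in 0% RPS mice 3 to 5, and Atf3, Fosb and Dusp1 are highest in 2% RPS mouse 2.

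Not all of the genes kept step with each other. Of the 45 pairs, 13 had a Pearson r over 0.7 across the 20 mice and 8 had one after the diet means were removed, and the median r was 0.50 and 0.38. These are descriptions across mice that share diets and libraries. 1 set of genes held Fos, Egr1, Ier2 and Zfp36, for instance Fos with Egr1 (r 0.87, 0.84 with diet means removed). Dusp1 went with Zfp36 (r 0.86, 0.79 with diet means removed). Atf3 and Fosb went with each other (r 0.74, 0.61 without 2% RPS mouse 2) and hardly with Egr1 (r 0.12 and 0.04). Jun and Junb had an r of 0.73 with all mice and 0.49 without the 3 libraries apart in GC. The genes outside the 10 whose log2 CPM was most like the index over the 20 mice were Hey2 (r 0.86), Foxj3 (0.84), Tmem86b (0.83), Bhlhe40 (0.82), Cish, Plk3 (0.77 each), Btg2 and Fhl2 (0.76 each). With diet means removed their r was 0.63 to 0.77. Plk3 and Btg2 fell at 10% RPS (log2 -0.83 and -0.82, edgeR adjusted p = 0.0251 for each). The others did not pass (adjusted p 0.0820 to 0.155), and 1.04% of all genes did. These genes were picked by r with diet means left in, and the index was lower at 10% RPS. A fall there was thus favoured by the choice and is no separate result.

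Of 40 other immediate early and early response genes, all tested, 6 fell at 10% RPS and 0 rose in edgeR, beside 0.495% and 0.547% of all genes. The list was put together with earlier results of these data known. Its counts beside those of all genes are therefore a description and not separate support. The median log2 estimate of the list was -0.24 beside 0.00 over all genes, with 16 lower and 3 higher at an unadjusted p under 0.05 (9.75% and 9.74% of all genes). Ier3, a survival factor of stressed cells, was at 21.1 to 28.6 CPM in 4 controls and 16.7 in 0% RPS mouse 2, and at 11.5 to 14.0 CPM in the 10% RPS mice (log2 -0.87, SE 0.14, adjusted p = 0.00818). Btg2, an antiproliferative gene, was at 162 to 247 CPM in controls and 99.9 to 150 in 10% RPS mice (log2 -0.82, SE 0.16, adjusted p = 0.0251). The mice of these 2 diets did not overlap for either gene, nor for Klf10, Dusp5, Maff, Mafk and Ppp1r15a, 7 of 40 beside 4.88% of all genes. Maff, a small Maf factor, fell by 0.94 (adjusted p = 0.0251) on the log2 scale and Klf10, induced by TGF-beta, fell by 0.66 (adjusted p = 0.0267). Dusp5, a nuclear ERK phosphatase, fell by 1.31 (adjusted p = 0.0267) and Ptgs2, the inducible cyclooxygenase, fell by 1.23 (adjusted p = 0.0435). Ier3 was the only one of the 40 to pass at 5% RPS (log2 -0.76, adjusted p = 0.0378, beside 0.195% of all genes), and 0 passed at 2% RPS in edgeR, where 6 of 40 had an unadjusted p under 0.05 (5.77% of all genes) and DESeq2 called Ier3 alone. In the fit to dose, Ier3, Klf10, Btg2, Dusp5, Maff and Mafk passed, all with a negative slope, beside 0.73% of all genes.

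Apart from Dusp5 and Ptgs2, the widest estimates at 10% RPS among the 40 were those of Arc (log2 -2.08, SE 0.59, adjusted p = 0.0706), Egr3 (1.25, SE 0.78, adjusted p = 0.385) and Fosl1 (-1.23, SE 0.43, adjusted p = 0.129), all low in level. Dusp2 and Egr3 tracked the B cell markers, with r 0.95 and 0.93 to their mean log2 CPM over 20 mice (0.94 and 0.92 with diet means removed), and Egr2, Dusp4 and Klf2 had an r of 0.75, 0.70 and 0.70. The estimate of Egr3 was -0.38 with that score as a covariate. For the 10 genes this r ran from -0.58 (Zfp36) to -0.09 (Junb). The 6 calls depended on the setting: all 6 remained among 11 called with the GC contrast as a covariate (3 of them higher, Jund among these) and among 10 without the 3 libraries apart in GC, 3 remained with the B cell score and 0 with the smooth muscle score as a covariate, where 0 of all genes passed, and 1 to 8 genes were called when single mice were left out. The count was 1 without 0% RPS mouse 3, 10% RPS mouse 1 or 10% RPS mouse 3, and 2 without 0% RPS mouse 4 or 10% RPS mouse 2. Of 25 upstream kinases and transcription factors of these genes, 0 passed at 10% RPS in edgeR (1.04% of all genes), with 2 higher and 4 lower at an unadjusted p under 0.05 (9.74% and 9.75% of all genes).

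Lists of genes for other states of the tissue were read beside the 10. Of 10 hypoxia genes, Slc2a1, a glucose transporter (log2 -0.95, adjusted p = 0.00289), and Ndrg1 (-1.29, adjusted p = 0.0251) fell at 10% RPS, and both fell at 5% RPS (-0.75 and -1.40, beside 0.195% of all genes). The list as a whole had a median log2 of -0.11 at 10% RPS, with 7 estimates lower and 3 higher. Of 6 glucocorticoid targets, Pdk4, an inhibitor of pyruvate dehydrogenase (log2 -1.51, adjusted p = 0.0316), and Cdkn1a, a cell cycle inhibitor (-0.68, adjusted p = 0.0251), fell at 10% RPS, and Errfi1 passed only in the trend. The 6 estimates at 10% RPS ran from -1.51 to -0.01, and Tsc22d3 had means of 67.4 CPM on 0% and 66.9 CPM on 10% RPS. The heat shock list had 0 of 10 and the clock list 0 of 11 past the threshold at 10% RPS in edgeR, and 1 (higher) and 0 at an unadjusted p under 0.05. Over all genes 1.04% passed at 10% RPS, and 9.74% were higher and 9.75% lower at an unadjusted p under 0.05. The summed heat shock genes were highest in 5% RPS mouse 4 (4022 CPM), which is 1 of the 3 libraries apart in GC, and 0% RPS mouse 1 (2969 CPM), which is not, and the other 18 mice lay between 1239 and 2018 CPM. These 2 were not the mice at either end of the index. Of the 8 smooth muscle markers, Actg2 rose at 10% (log2 1.28, adjusted p = 0.0358) and 5% RPS (1.53, adjusted p = 0.0425), and the list's summed medians were 3503 CPM on 0% and 6409 CPM on 10% RPS. At 5% RPS 30 of all genes passed, against 1 without the 3 libraries apart in GC and 0 with the smooth muscle score as a covariate. The calls at 5% RPS given here thus depended on the setting. The part of hypoxia, stress hormones or time of day in the levels of the 10 genes was not tested.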

How the data were processed

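RNA from the cecum of 20 mice was made into stranded mRNA libraries and sequenced as single 50-base reads. The authors removed bases below Q30 and reads with more than 2 ambiguous bases, mapped the reads with CLC Genomics Workbench to GRCm39, and deposited whole-number read counts per Ensembl gene, not normalized. The annotation release, the treatment of multi-mapping reads and the strand setting are not given in the sources used here. Genes were named from GENCODE M39, which matched 19827 of 19887 IDs.

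Genes were kept by filterByExpr (minimum count 10, minimum total 15), which left 15348 genes with 99.98% of the reads, and scaled by TMM (factors 0.916 to 1.07). The 4 diets were fitted in 1 edgeR 4.0.16 quasi-likelihood model with robust dispersions (R 4.3.3), and p-values were Benjamini-Hochberg adjusted over all tested genes. The procedure was tested on simulated data. A call needed an adjusted p of at most 0.05 and a 1.5-fold change, but for the trend and the joint test only the adjusted p. CPM values are TMM-scaled, and log2 CPM has a prior count of 2. GC content was that of the longest GENCODE transcript. The labels do not say whether mice of 1 diet shared a cage. If they did, cage and diet cannot be told apart. The p-values set each diet difference against the spread between these mice only. Alternatives were DESeq2 1.42.0 (size factors and Wald test), other filters, covariates (smooth muscle score, mitochondrial share, 1 surrogate variable from sva 3.50.0) and leaving out each mouse; those with the B cell score, the GC contrast and without 3 libraries were chosen after seeing the data.

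The 10 genes and all gene lists were chosen with earlier results of these data known. Named from the lists were the genes called in any comparison, the 5 other immediate early genes with the largest change at 10% RPS, and the 8 genes most like the index. Jund, Dusp2, Egr2, Dusp4, Klf2 and Ppp1r15a were named after their values were seen.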

Additional observations from a re-analysis of the deposited data

Results flagged for a closer look

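In 40 groups of 5 mice (10 genes in 4 diets), the highest or lowest mouse was set against the rest by the gap to its nearest neighbour as a share of the group's range, with a limit of 0.71. 2 groups passed it, and chance alone would give about 1 in 20, or 2 groups. Junb in 2% RPS mouse 3 was at 203.4 CPM, with the other 4 mice at 85.2 to 107 CPM. That library is 1 of the 3 that stood apart in GC. Zfp36 in 5% RPS mouse 2 was at 265.9 CPM, with the other 4 mice at 164 to 182 CPM, and its GC contrast (-0.16) was like that of the other 17 libraries.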

How the results depend on the processing

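None of the 10 genes was called in edgeR at 2%, 5% or 10% RPS, in the dose fit or in the joint test. Among other settings DESeq2 called 2 at 10% RPS, 2 in the dose fit and 1 in the joint test, a fit of the 2 diets alone called 1 at 10% RPS, and the dose fit called 2 with the rank of the dose and 1 with the GC contrast as a covariate. Leaving out single mice gave 0 to 2 at 10% RPS and in the dose fit, and 0 otherwise. The 2 at 10% RPS (Dusp1 and Zfp36) came without 0% RPS mouse 2, and 1 (Dusp1) without 2% RPS mouse 2. Of the 40 other early genes, 6 were called at 10% RPS, against 11 by DESeq2, 11 with the GC contrast, 10 without the 3 libraries apart in GC, 3 with the B cell score and 0 with the smooth muscle score. The 1 called at 5% RPS became 6, 3, 0, 2 and 0 in that order, and 2 with a surrogate variable. The 6 of the dose fit became 13, 10, 12, 2 and 0 in that order, 10 with the mitochondrial share and 10 with the rank of the dose. Without single mice these counts ran from 1 to 8, from 0 to 3 and from 0 to 9. Over all genes at 10% RPS, 160 were called, against 368 by DESeq2, 354 with the GC contrast, 321 with the mitochondrial share, 317 without the 3 libraries, 101 with the B cell score, 98 in the fit of 2 diets and 0 with the smooth muscle score. Signs turned for Dusp1 at 2% RPS (-0.11 with the smooth muscle score and -0.001 with the B cell score), Fosb at 10% RPS (0.019 with the B cell score), Egr3 at 10% RPS (-0.38 with the B cell score), and Junb without the 3 libraries (0.12 at 10% RPS and a slope of 0.015). Without single mice, Junb ran from -0.48 to 0.12 at 10%, -0.52 to 0.10 at 5% and -0.51 to 0.21 at 2% RPS, its slope from -0.038 to 0.0034, Fosb from -0.25 to 0.064 at 10% and -0.25 to 0.11 at 5% RPS, and at 2% RPS Klf6 from -0.15 to 0.080 and Dusp1 from -0.44 to 0.21. The cause of these changes was not tested. The median spread percentile of the 10 ran from 77.3 to 85.8 without single mice and from 82.9 to 85.7 under the other settings. No paired analysis was possible because no animal number is shared by any 2 of the diets in the labels. With 5 mice per diet, the SEs of the 10 genes at 10% RPS ran from 0.13 (Klf6) to 0.54 (Egr1) on the log2 scale. Counts were lowest for Fosb, with 21 in its lowest mouse, and its SE of 0.34 was the same as that of Fos.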
